A study of Mus musculus with 12 samples.

Results

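The p62 by HD interaction is the amount by which the expression difference between Huntington's disease (HD) model mice and non-transgenic (NT) mice changed when p62 was missing. It was measured in the striatum as (HD_p62KO minus NT_p62KO) minus (HD_p62WT minus NT_p62WT) on the log2 scale. A positive value means that the HD difference was more positive without p62, and for a gene that was lower in HD it means a smaller drop. All probe sets with 1 gene symbol entered, with the brightest probe set of each gene, which gave 19248 genes, all genes tested in the series. The interaction uses all 12 arrays, 3 from each of 4 groups of mice aged 8 weeks. NT_p62WT mice carried no HD transgene and had normal p62 (p62+_+), HD_p62WT mice carried the HD transgene with normal p62, NT_p62KO mice carried no transgene and had the p62 knockout (p62-_-), and HD_p62KO mice carried both. The study crossed HD model mice to p62 knockouts. The HD line and its promoter, the p62 allele, the cells in which it is missing and the sex of the mice could not be read from the labels. The samples are called biological replicates, and each was taken as 1 mouse.

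p62, encoded by Sqstm1, binds ubiquitinated proteins and hands them to the autophagosome, and it also acts as a scaffold in NRF2 and NF-kappaB signalling. In HD an expanded polyglutamine stretch makes huntingtin aggregate into inclusions, which contain ubiquitin and p62, and projection neurons of the striatum lose the expression of many of their characteristic genes. An interaction near 0 means that the HD transgene was accompanied by about the same log2 difference with and without p62. An estimate near 0 shows this only as closely as its interval is narrow, so the results are given as intervals. The question is how far the HD expression response depends on p62.

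A marker of the striatum was bright in every group. Ppp1r1b, encoding the phosphoprotein DARPP-32 of projection neurons, lay between 10.44 and 11.48 on the log2 scale over the 12 mice. Array medians lay between 7.70 and 7.73, and arrays of a group correlated at 0.988 to 0.995. The arrays differed in spread. The SD of all log2 values of an array was 1.73 in NT_p62KO replicate 3 and 1.79 to 1.87 in the other 11 arrays, and HD_p62WT replicate 2 (1.79) was the narrowest of its group, though no narrower than NT_p62WT replicates 1 and 3 (both 1.79). Results are given without NT_p62KO replicate 3, without this mouse and HD_p62WT replicate 2, and without the narrowest array of each of the 4 groups. The last takes the groups alike, while leaving out either mouse of the pair lowers the interaction of the HD response, and the pair was chosen after seeing the data. The interaction of the spread itself was 0.03 (95% interval -0.06 to 0.12). Precision is limited by having 3 arrays a group, and in bulk tissue fewer cells of a type and less RNA per cell cannot be told apart.

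Sqstm1 checks the p62 labels. Its log2 values were 11.19, 11.35 and 11.24 in NT_p62WT mice, 11.75, 11.26 and 11.51 in HD_p62WT mice, 8.44, 8.52 and 8.49 in NT_p62KO mice and 8.92, 9.13 and 9.02 in HD_p62KO mice. All 6 knockouts lay below all 6 mice with normal p62. The HD difference of the Sqstm1 signal was 0.24 with normal p62 and 0.54 in the knockouts. The interaction was 0.30 (95% interval -0.03 to 0.63), and the signal in the knockouts comes from a probe set whose place relative to the deleted part was not known here.

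No gene passed the test of the interaction. Of 19248 genes 0 were called at an adjusted p below 0.05 (0%; limma, Benjamini-Hochberg), and the smallest adjusted p was 0.991. At an unadjusted p below 0.05 there were 665 genes (3.45%), of which 306 (1.59%) had a positive and 359 (1.87%) a negative interaction, where 5% of the genes would be 962.4. The same model called 1366 genes (7.1%) for the HD difference with p62 and 4172 (21.7%) without p62. These differences share no array. Of the genes called, 1107 were called in both and in the same direction, 81.0% of those with p62 and 26.5% of those without, and 0 were called in opposite directions. The 3065 genes called only without p62 had the same sign with p62 in 2963 cases, and 0 of the 3065 passed the test of the interaction. The larger count without p62 is therefore not a count of genes whose HD difference was shown to depend on p62. Single mice moved these counts. With p62 the count was 441, 845 and 440 without NT_p62WT replicates 1, 2 and 3, 421 and 398 without HD_p62WT replicates 1 and 3, and 2040 without NT_p62KO replicate 3. Without p62 it was 1273 and 1795 without HD_p62KO replicates 2 and 3 and 1876 without NT_p62KO replicate 3. With array spread as a covariate the count without p62 was 779.

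The intervals say how large an interaction the 12 arrays leave room for. A gene's 95% interval reached 0.29 to either side of its estimate in the median (quartiles 0.24 and 0.36). For 18727 genes (97.3%) the whole interval lay within 1 log2 unit of 0, a factor of 2 in either direction. For 13890 genes (72.2%) it lay within 0.5, a factor of 1.41. The remaining 521 genes could not be bounded within a factor of 2. The estimates themselves had a median of 0.004, and the 5th and 95th percentiles were -0.26 and 0.26. They ran from -2.01 for Ttr, the transthyretin of the choroid plexus, to 1.73 for Calb2, the calretinin of an interneuron class. Both extremes had wide intervals, -4.77 to 0.75 for Ttr and 0.26 to 3.21 for Calb2.

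**Figure D1:**
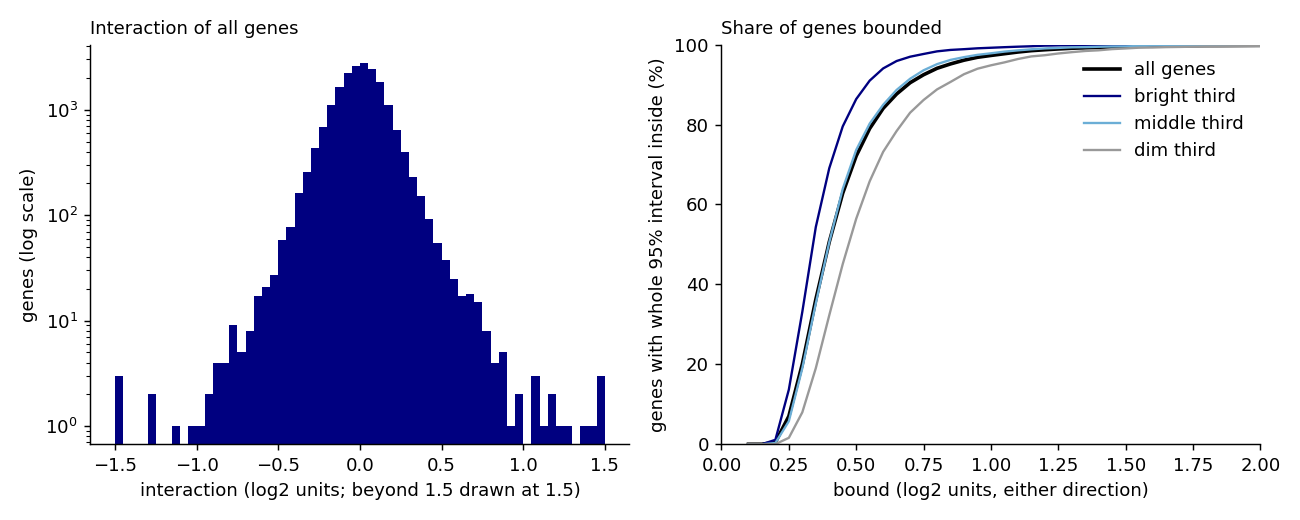
Left, the number of genes (log scale) by interaction in log2 units over 19248 genes. Right, the percentage of genes whose whole 95% interval lies within the bound on the x axis (log2 units, either direction), for all genes and for 3 classes of 6416 genes by mean log2 value; at 0.5 it was 72.2% of all, 86.4% of bright and 56.5% of dim genes.

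Bright genes were bounded more closely than dim ones. With the genes in 3 classes of 6416 by mean log2 value, intervals within 0.5 were found for 56.5% of dim, 73.6% of middle and 86.4% of bright genes. The sign of the interaction also followed brightness, with 38.4% of dim, 49.4% of middle and 66.1% of bright genes positive. Without NT_p62KO replicate 3 these shares were 49.0%, 48.1% and 52.4%, and with array spread as a covariate 49.6%, 49.0% and 52.7%. Without the narrowest array of each group they were 48.5%, 48.7% and 52.4%. Without NT_p62KO replicate 3 and HD_p62WT replicate 2 the order was reversed, with 56.1%, 48.9% and 42.3%. Direction in HD mattered too: of genes called higher for the HD difference averaged over both p62 genotypes 76.9% had a positive interaction, and of genes called lower 33.3%.

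The HD response as a whole was bounded by a value per mouse. It was the mean log2 value of the 3838 genes called higher minus that of the 2890 genes called lower for the HD difference averaged over both p62 genotypes (6728 genes, 35%). In this balanced design the averaged difference is uncorrelated with the interaction if values vary alike between mice of all 4 groups. The median SD of a gene was 0.09 in NT_p62WT, 0.10 in HD_p62WT, 0.12 in NT_p62KO and 0.10 in HD_p62KO mice. Whether the choice of genes by the averaged difference moved their interaction was not tested. Centred on the 12 mice, the response was -0.30, -0.22 and -0.32 in NT_p62WT mice, 0.34, 0.16 and 0.31 in HD_p62WT mice, -0.28, -0.24 and -0.49 in NT_p62KO mice and 0.22, 0.45 and 0.36 in HD_p62KO mice. The 6 HD mice lay above the 6 others, which the choice of genes fixes, and the p62 genotypes overlapped within HD and within NT mice. The HD difference was 0.55 with p62 (95% interval 0.35 to 0.75) and 0.68 without (0.48 to 0.88). The interaction was 0.13 (-0.15 to 0.41), or 21.2% of the averaged response (-24.6% to 66.9%). Shares of an averaged HD difference are given, here and below, as if that difference were known exactly. The interval includes no change of the response with p62 loss.

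The value depended on which mice entered. It was 0.07 (-0.15 to 0.28) without NT_p62KO replicate 3 and -0.01 (-0.24 to 0.22) without both this mouse and HD_p62WT replicate 2. Without the narrowest array of each of the 4 groups it was 0.08 (-0.09 to 0.26), and with array spread as a covariate 0.08 (-0.03 to 0.18). Over the mice left out singly it ran from 0.06 without HD_p62WT replicate 2 to 0.24 without HD_p62KO replicate 1. The interval included 0 in all 25 alternatives run for this value.

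**Figure D2:**
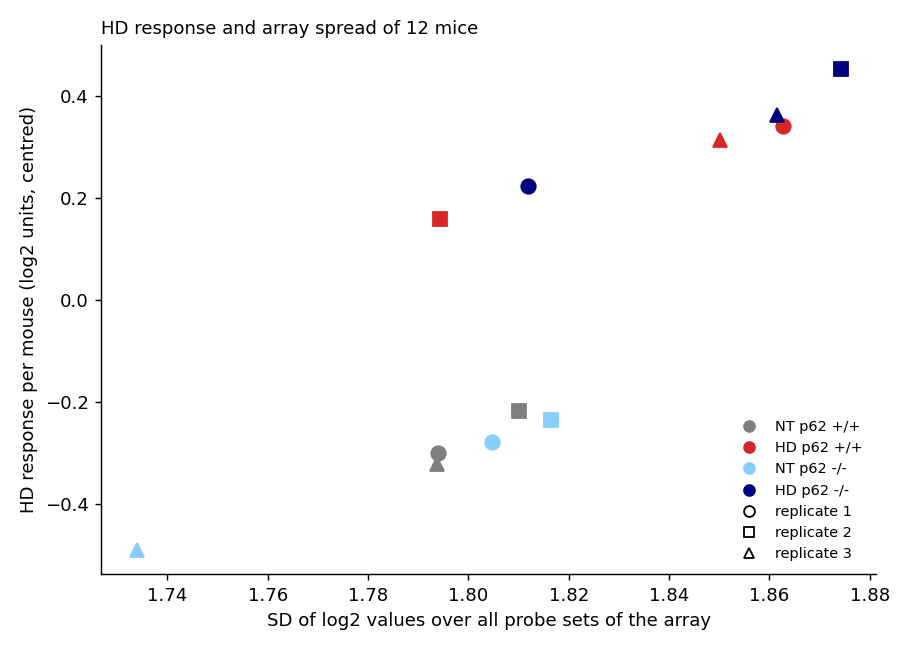
HD response of each of 12 mice (log2 units, centred on all mice) against the SD of all log2 values of its array; colours mark the 4 groups and symbols the replicate number. NT_p62KO replicate 3 has the smallest spread (1.73) and the lowest response (-0.49), and HD_p62KO replicate 2 the largest spread (1.87) and the highest response (0.45).

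The genes with the largest HD differences were examined singly. In all, 31 genes were called for the averaged HD difference and changed at least 2-fold, 12 higher and 19 lower, and 28 of them have names other than those of predicted genes. The HD difference alone called 23 of the 31 with p62 and 29 without (backgrounds 7.1% and 21.7%), contrasts that the choice of these genes used. It was larger without p62 in 24 of 31, where 76.9% of all genes called higher had a positive and 33.3% of those called lower had a positive interaction. The mean over the 31 genes, higher minus lower, differed between HD and NT mice by 2.28 with p62 and 2.54 without, an interaction of 0.27 (-0.40 to 0.93). That is 11.0% of the averaged value (-16.4% to 38.4%). The interval of the interaction included 0 for 28 of the 31 genes and lay within a factor of 2 for 19.

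The lowest averaged HD differences were those of Gpx6 and Scn4b. Gpx6, a glutathione peroxidase, had values of 8.35, 8.64 and 8.05 in NT_p62WT, 6.49, 6.75 and 6.51 in HD_p62WT, 8.37, 8.59 and 8.32 in NT_p62KO and 6.55, 6.05 and 6.49 in HD_p62KO mice. It fell by 1.76 with p62 and fell by 2.07 without, and the interaction was -0.30 (-0.79 to 0.18). The HD mice of both genotypes overlapped each other and none reached an NT mouse.

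Scn4b, a sodium channel subunit enriched in projection neurons, is bounded closely. Its values were 10.91, 10.65 and 10.79 in NT_p62WT, 9.00, 9.03 and 9.02 in HD_p62WT, 10.71, 10.89 and 10.68 in NT_p62KO and 8.82, 8.99 and 8.82 in HD_p62KO mice. It fell by 1.77 with p62 and fell by 1.88 without, and the interaction was -0.12 (-0.38 to 0.15). The p62 knockouts among HD mice lay just below the HD mice with p62, and the NT genotypes overlapped. Cnr1, the cannabinoid receptor CB1, fell by 1.18 with p62 and fell by 1.28 without, and its interaction was -0.10 (-0.39 to 0.19). Ddit4l, a relative of the mTOR regulator Ddit4, and Myo3b, a class III myosin, had interactions of -0.02 (-0.38 to 0.34) and -0.04 (-0.40 to 0.32). Phex, an endopeptidase known from phosphate balance, had -0.24 (-0.52 to 0.04).

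The intervals of Gpr139, Clspn and Nexmif left out 0, though none passed the test adjusted over all genes (limma, adjusted p at least 0.991). Gpr139, an orphan receptor of the striatum and habenula, had values of 9.64, 9.51 and 9.67 in NT_p62WT, 8.44, 8.48 and 8.41 in HD_p62WT, 9.60, 9.93 and 9.93 in NT_p62KO and 8.32, 8.38 and 8.20 in HD_p62KO mice. It fell by 1.16 with p62 and fell by 1.52 without, an interaction of -0.36 (-0.64 to -0.07). All 3 HD_p62KO mice lay below all 3 HD_p62WT mice, and the NT genotypes overlapped. Clspn, encoding the checkpoint adaptor claspin, fell by 0.97 with p62 and fell by 1.38 without, an interaction of -0.41 (-0.78 to -0.05).

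Nexmif, an X-linked gene of neurite growth, was higher in HD mice. Its values were 5.89, 6.29 and 5.67 in NT_p62WT, 6.95, 6.48 and 6.42 in HD_p62WT, 5.96, 5.57 and 4.66 in NT_p62KO and 6.69, 7.36 and 7.31 in HD_p62KO mice. The HD difference was 0.66 with p62, where it did not pass the test, and 1.72 without, where the gene rose. The interaction was 1.06 (0.15 to 1.97), and NT_p62KO replicate 3 was the lowest of all 12 mice. Trappc13, a subunit of a vesicle tethering complex, had the most negative interaction of the 28, -0.72 with an interval that included 0, and rose by 1.49 with p62 and by 0.77 without. Cntn6, a neuronal adhesion molecule, rose by 1.84 with p62 and by 1.60 without, and its interval ran from -1.52 to 1.04.

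**Figure D3:**
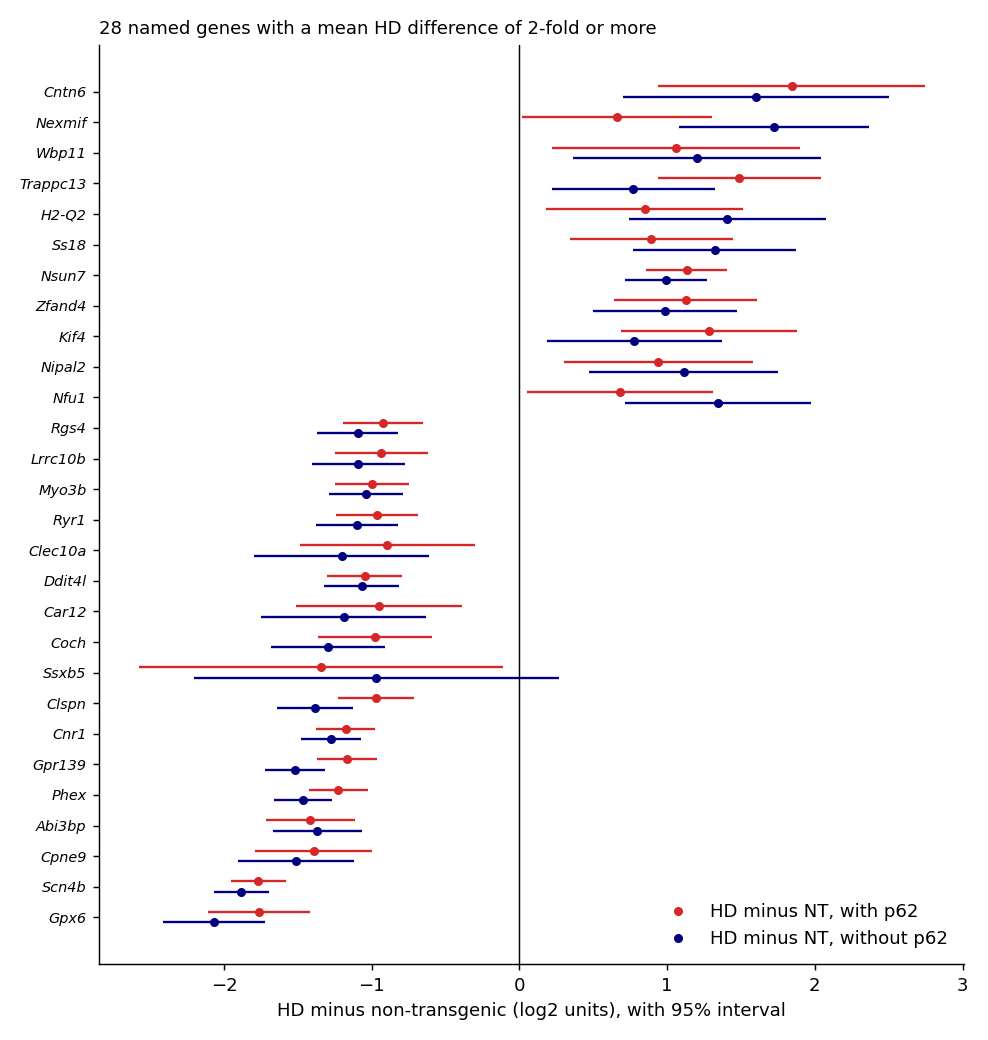
HD minus NT difference (log2 units) with its 95% interval for the 28 named genes with an averaged HD difference of at least 2-fold, with p62 (red) and without (blue). Scn4b, at -1.77 with p62 and -1.88 without, lies among the largest drops, and the interval of the interaction includes 0 for 28 of all 31 genes of this size.

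Gene groups were bounded with the mean over the measured genes of a list in each mouse, so that the mouse and not the gene is the unit. Of 32 lists 31 had at least 3 measured genes, 21 of functions and 10 of cell types, with 816 distinct genes. The interval of the interaction lay within 0.5 for 29 of the 31 and within 1 for 30. The exceptions were the choroid plexus and the excitatory neurons of the neighbouring cortex. The farther end of the interval had a median of 0.27 over the groups and was smallest for NF-kappaB and inflammatory genes (0.13). Of the 31 intervals, 1 left out 0, that of interneuron markers, and 0 did when widened so that all 31 hold together (99.8% each). With the wider intervals 22 groups lay within 0.5 and 29 within 1. The mean interaction was positive in 23 groups, in 21 without NT_p62KO replicate 3, in 18 without the narrowest array of each group and in 12 without NT_p62KO replicate 3 and HD_p62WT replicate 2.

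**Figure D4:**
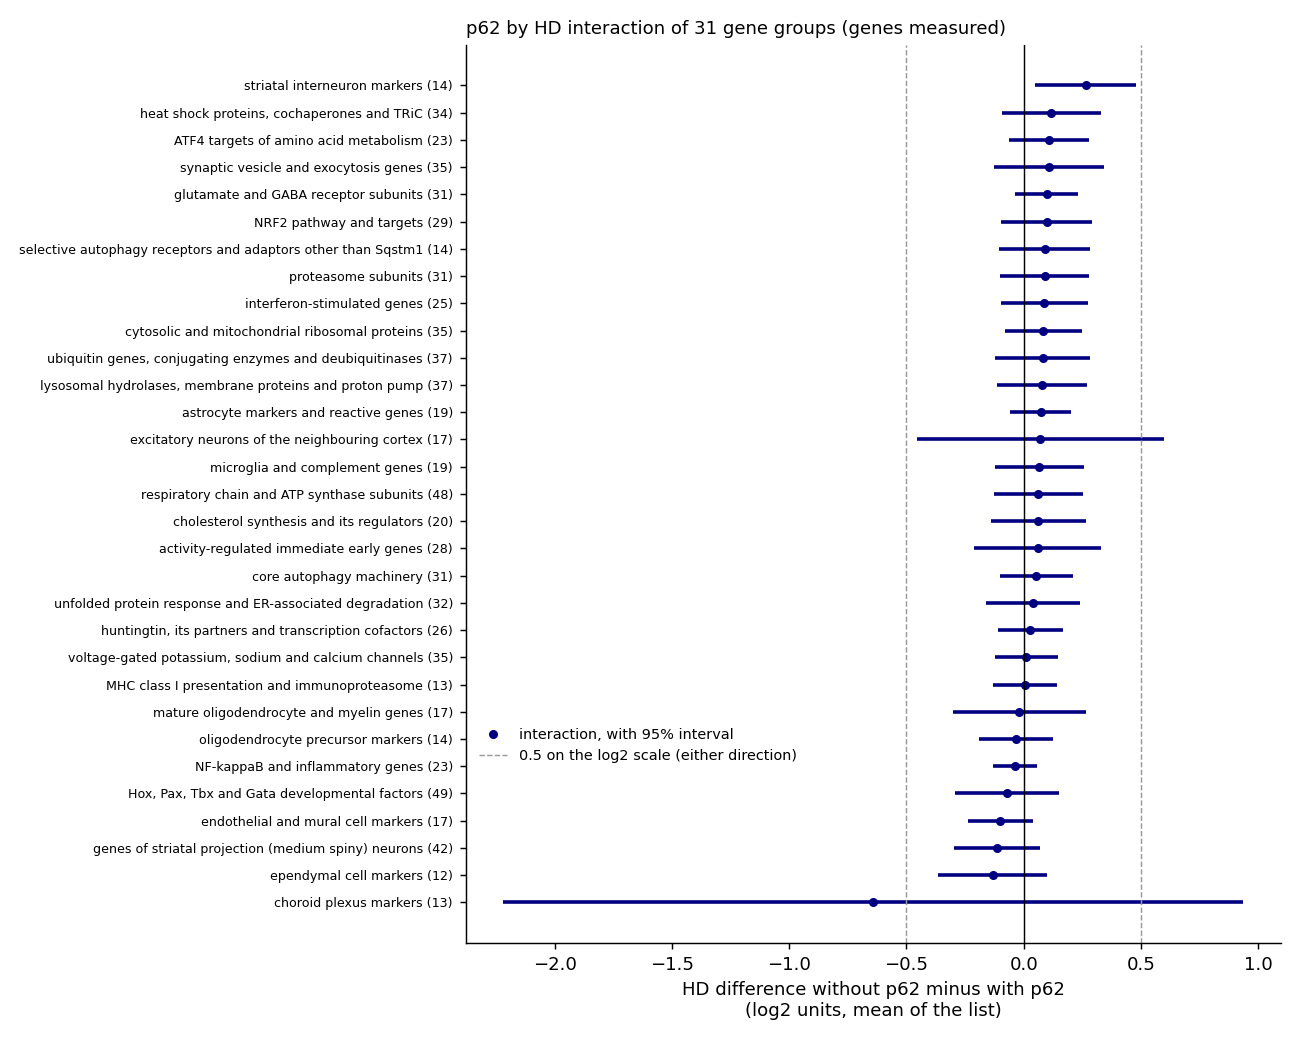
Interaction of 31 gene groups (points, log2 units, mean over the measured genes of the list per mouse) with its 95% interval from 3 mice in each of 4 groups; the number of genes measured is in parentheses and dashed lines mark 0.5. Of the 31 intervals 29 lie between the dashed lines, and that of interneuron markers (0.05 to 0.48) leaves out 0.

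Of the 816 genes 0 passed the test of the interaction. At an unadjusted p below 0.05 there were 20, of which 13 were positive (background 1.59%) and 7 negative (1.87%). The members named in the following groups are those with the highest and lowest interaction and the largest averaged HD difference of a list, unless stated otherwise. Lists were chosen with earlier results of these data known, so a count of called members beside its background is a description only.

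Selective autophagy receptors link cargo to the autophagosome as p62 does. The 14 measured receptors and adaptors other than Sqstm1 had a mean HD difference of 0.12 with p62 and 0.21 without, an interaction of 0.09 (-0.11 to 0.28). The median gene was 0.07 and 14 of 14 genes were positive, against 66.1% among bright genes and 76.9% among genes called higher in HD. Per mouse the list mean was -0.09, -0.02 and -0.05 in NT_p62WT, 0.14, -0.01 and 0.08 in HD_p62WT, -0.07, -0.03 and -0.24 in NT_p62KO and 0.04, 0.14 and 0.09 in HD_p62KO mice. The lowest value was that of the array of smallest spread, and the HD mice of both genotypes overlapped. Without NT_p62KO replicate 3 the list's interaction was 0.03, and without this mouse and HD_p62WT replicate 2 it was -0.01 (-0.14 to 0.12). Without the narrowest array of each group it was 0.01 (-0.14 to 0.16).

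Among the receptors, Retreg1, a receptor for the endoplasmic reticulum, had the largest averaged HD difference. Its values were 8.55, 8.73 and 8.46 in NT_p62WT, 9.10, 8.85 and 9.04 in HD_p62WT, 8.62, 8.68 and 8.37 in NT_p62KO and 8.80, 9.26 and 9.05 in HD_p62KO mice. It was higher in each HD mouse than in any NT mouse of either genotype, and its interaction was 0.06 (-0.32 to 0.45). The highest interaction was 0.19 for Ccpg1 (-0.15 to 0.54), another reticulum receptor, and the lowest was 0.01 for Calcoco1 (-0.20 to 0.22). For 1 of 14 receptors the HD difference was called with p62 and for 5 without (backgrounds 7.1% and 21.7%). Core autophagy genes, 31 measured, had an interaction of 0.05 (-0.10 to 0.21), with Atg5 highest (0.21; -0.12 to 0.54) and Atg13, of the initiating kinase complex, lowest (-0.18; -0.56 to 0.20).

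Lysosomal genes were bounded as closely. The 37 measured hydrolases, membrane proteins and pump subunits had an interaction of 0.08 (-0.11 to 0.27). Gla, the alpha-galactosidase, had the highest value of the list (0.39; 0.11 to 0.68). Its log2 values were 8.60, 8.32 and 8.52 in NT_p62WT, 8.53, 8.53 and 8.62 in HD_p62WT, 8.42, 8.31 and 8.11 in NT_p62KO and 8.84, 8.74 and 8.68 in HD_p62KO mice. The HD_p62KO mice lay above all others, and the groups with p62 overlapped. Ctsl, a cathepsin, was lowest with -0.12 (-0.36 to 0.13).

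The protein degradation and folding machinery showed small positive values. Proteasome subunits, 31 measured, had a mean HD difference of 0.14 with p62 and 0.23 without, an interaction of 0.09 (-0.10 to 0.28). The estimate was positive in 29 of 31, where it was positive in 66.1% of bright genes and 76.9% of genes called higher in HD. Without NT_p62KO replicate 3 and HD_p62WT replicate 2 the interaction of the list was -0.01 (-0.14 to 0.11), and without the narrowest array of each group 0.02 (-0.03 to 0.07). Psmd1, a subunit of the regulatory cap, had the largest averaged HD difference of the list, rose by 0.70 with p62 and by 0.88 without, and had an interaction of 0.18 (-0.39 to 0.76). Ubiquitin genes, conjugating enzymes and deubiquitinases, 37 measured, had an interaction of 0.08 (-0.12 to 0.28). Uchl5, a deubiquitinase of the proteasome, was highest (0.21; -0.18 to 0.60).

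Heat shock proteins, cochaperones and the chaperonin TRiC had the largest positive mean of the 21 functional groups, 0.12 (-0.09 to 0.33; 34 measured), 0.02 (-0.15 to 0.19) without the same pair of mice and 0.06 (-0.12 to 0.24) without the narrowest array of each group. Tcp1, a TRiC subunit, was highest. Its values were 9.00, 9.33 and 9.31 in NT_p62WT, 9.76, 8.65 and 9.42 in HD_p62WT, 9.24, 9.45 and 8.57 in NT_p62KO and 9.31, 9.95 and 9.79 in HD_p62KO mice. The lowest values of Tcp1 were those of HD_p62WT replicate 2 and NT_p62KO replicate 3, and its interval ran from -0.33 to 1.39. The lowest member, the cochaperone Dnajb6, had -0.16 (-0.46 to 0.14). The HD difference was called for 0 of the 34 genes with p62 and for 13 without (backgrounds 7.1% and 21.7%).

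Pathways in which p62 is a scaffold were bounded too. NRF2 and its targets, 29 measured antioxidant and detoxifying genes, had an interaction of 0.10 (-0.10 to 0.29). Nfe2l2, encoding NRF2, rose by 0.47 with p62 and by 0.55 without, and its interaction was 0.08 (-0.24 to 0.40). Slc7a11, the cystine transporter, was highest with 0.45 (-0.19 to 1.08). NF-kappaB and inflammatory genes, 23 measured, had the tightest bound, -0.04 (-0.13 to 0.05). In this list Relb, a subunit of NF-kappaB, was lowest with -0.77 (-1.52 to -0.03), and its values overlapped between groups, from 4.81 in HD_p62KO replicate 2 to 6.42 in HD_p62WT replicate 3. With only genes above the 50th percentile of mean log2 value the mean of the NF-kappaB list was 0.08 (0.01 to 0.15).

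Stress responses of the endoplasmic reticulum and of amino acid metabolism gave similar bounds. Genes of the unfolded protein response and of reticulum-associated degradation, 32 measured, had an interaction of 0.04 (-0.16 to 0.24). Pdia3, a disulfide isomerase, had the largest averaged HD difference in this list, 0.61 with p62 and 0.56 without, and an interaction of -0.05 (-0.62 to 0.52). Targets of the transcription factor ATF4 in amino acid metabolism, 23 measured, had 0.11 (-0.06 to 0.28). Shmt2, the mitochondrial serine hydroxymethyltransferase, rose by 0.48 with p62 and by 0.61 without, with an interaction of 0.13 (-0.22 to 0.47).

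Genes of striatal projection neurons were lower in HD mice of both p62 genotypes and had a negative mean interaction. The 42 measured genes had a mean HD difference of -0.38 with p62 and -0.50 without. The interaction was -0.11 (-0.30 to 0.07), which is 26.2% of the averaged difference (-16.0% to 68.4%). Per mouse the list mean was 0.27, 0.10 and 0.23 in NT_p62WT, -0.18, -0.19 and -0.17 in HD_p62WT, 0.19, 0.35 and 0.17 in NT_p62KO and -0.27, -0.23 and -0.27 in HD_p62KO mice. Each HD_p62KO mouse lay below each HD_p62WT mouse, while the NT genotypes overlapped. The estimate was negative in 38 of the 42 genes, that is, positive in 4, against 33.3% positive among all genes called lower in HD and 66.1% among bright genes. The HD difference was called lower for 27 of the 42 with p62 and 30 without (backgrounds 3.24% and 8.34%), in a list chosen with earlier results of these data known.

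The value for projection neurons kept its sign at -0.15 (-0.34 to 0.05) without NT_p62KO replicate 3 and -0.16 (-0.38 to 0.07) without this mouse and HD_p62WT replicate 2. The interval included 0 in each alternative. Ebf1, a transcription factor of the direct pathway neurons, had the lowest interaction, -0.38 (-0.70 to -0.05). It was higher in HD mice, not lower. Its values were 8.25, 8.22 and 8.42 in NT_p62WT, 8.97, 9.08 and 9.08 in HD_p62WT, 8.44, 8.68 and 8.70 in NT_p62KO and 8.97, 9.18 and 8.78 in HD_p62KO mice. The NT_p62KO mice lay above the NT_p62WT mice and the HD genotypes overlapped. Rgs14, a regulator of G protein signalling, was highest with 0.09 (-0.12 to 0.30).

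**Figure D5:**
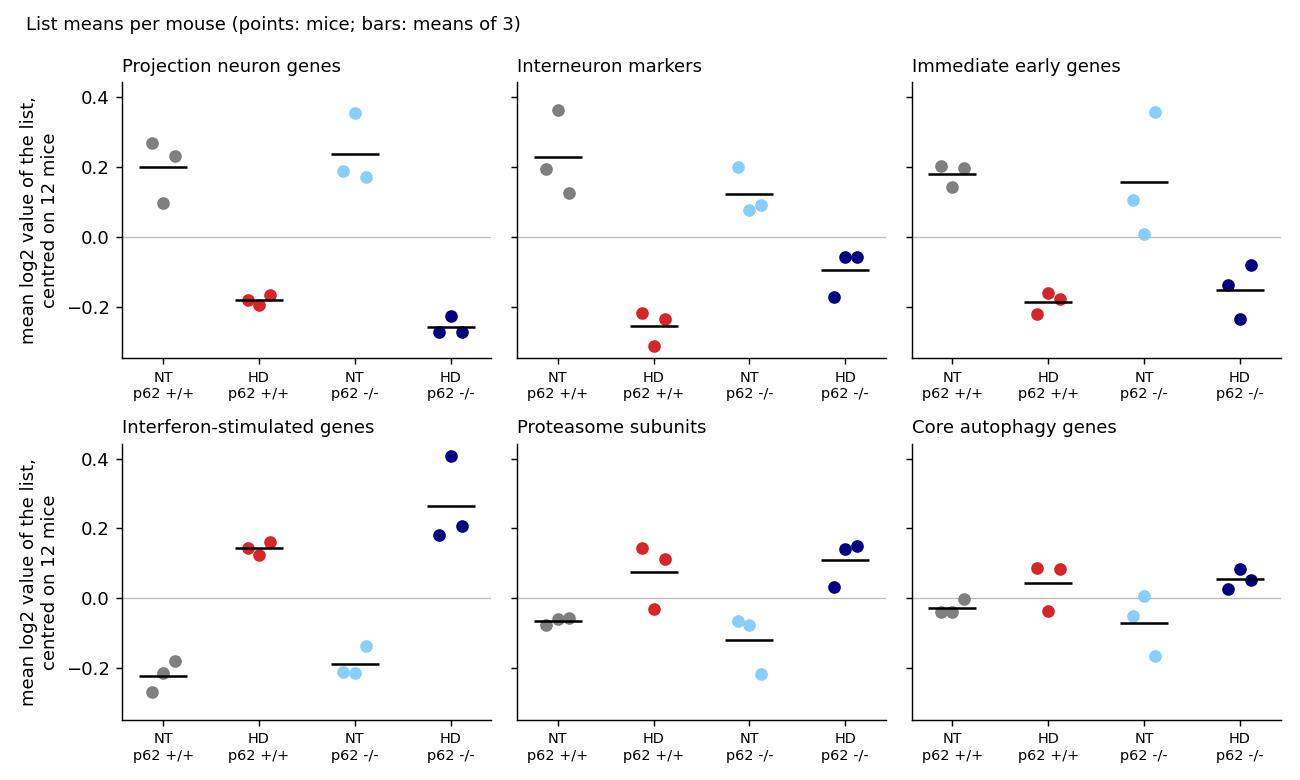
Mean log2 value of 6 gene lists in each of 12 mice, each gene centred on its mean over the mice (points), with the mean of 3 mice (bars). HD mice lie below NT mice for projection neuron genes, interneuron markers and immediate early genes and above them for interferon-stimulated genes, and the HD_p62KO points of interneuron markers (-0.17, -0.06 and -0.06) lie above those of HD_p62WT mice.

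Interneuron markers were the single group whose interval left out 0. The 14 measured markers had a mean HD difference of -0.48 with p62 and -0.22 without, an interaction of 0.26 (0.05 to 0.48). Per mouse the list mean was 0.20, 0.36 and 0.13 in NT_p62WT, -0.22, -0.31 and -0.23 in HD_p62WT, 0.20, 0.08 and 0.09 in NT_p62KO and -0.17, -0.06 and -0.06 in HD_p62KO mice. All HD_p62KO mice lay above all HD_p62WT mice, and the NT genotypes overlapped. The interval that holds together for all 31 groups was -0.17 to 0.70. With p62 6 of the 14 markers fell and 0 rose, and without p62 4 fell and 0 rose (backgrounds of falling genes 3.24% and 8.34%).

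Single genes weighed heavily in the interneuron value. Calb2, encoding calretinin, had 7.23, 8.53 and 6.60 in NT_p62WT, 6.45, 6.41 and 6.69 in HD_p62WT, 7.47, 6.26 and 7.20 in NT_p62KO and 6.83, 8.34 and 8.14 in HD_p62KO mice. The values within the NT_p62WT group spanned nearly the range of all 12 mice, and the interaction was 1.73 (0.26 to 3.21). Without Calb2, an alternative chosen after its values were seen, the list had 0.15 (0.03 to 0.27). The median of the list in each mouse in place of the mean gave 0.08 (-0.07 to 0.22). Without NT_p62WT replicate 2, the mouse with the highest Calb2, the list mean had an interaction of 0.20 (0.02 to 0.37).

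Slc17a6, the vesicular glutamate transporter VGLUT2 of neurons mostly outside the striatum, was high in some of the same mice. Its values were 6.75, 8.63 and 6.63 in NT_p62WT, 6.78, 6.29 and 7.38 in HD_p62WT, 8.30, 6.44 and 7.05 in NT_p62KO and 7.63, 7.61 and 7.25 in HD_p62KO mice. NT_p62WT replicate 2 had the highest value of both Calb2 and Slc17a6, and within NT_p62KO mice replicate 1 did and within HD_p62WT mice replicate 3. Within HD_p62KO mice, in contrast, replicate 1 had the highest Slc17a6 (7.63) and the lowest Calb2 (6.83). The interaction of Slc17a6 was 0.75 (-0.87 to 2.37). Apart from a covariate for choroid plexus genes, given below, the part of tissue from outside the striatum in the interneuron value was not tested.

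Chat, the enzyme that makes acetylcholine in cholinergic interneurons, had the largest averaged HD difference of the list. Its values were 8.01, 7.73 and 7.79 in NT_p62WT, 7.19, 6.60 and 6.40 in HD_p62WT, 7.15, 7.87 and 7.29 in NT_p62KO and 6.97, 7.12 and 6.83 in HD_p62KO mice. With p62 the groups did not overlap and Chat fell by 1.12. Without p62 they did not overlap either, but the difference of -0.47 did not pass the test. The interaction was 0.65 (0.02 to 1.28). Pvalb, the parvalbumin of fast-spiking interneurons, was lowest with -0.18 (-0.91 to 0.54).

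Other neuronal groups had intervals that included 0. Voltage-gated channels, 35 measured, had an interaction of 0.01 (-0.12 to 0.15) with mean HD differences of -0.18 with p62 and -0.17 without. Kcnh4, a potassium channel of the striatum, fell by 0.77 with p62 and fell by 0.91 without. Glutamate and GABA receptor subunits, 31 measured, had 0.10 (-0.04 to 0.23) with mean HD differences of -0.15 with p62 and -0.06 without, with Grin3a, an NMDA receptor subunit, highest (0.57; 0.03 to 1.10). Synaptic vesicle genes, 35 measured, had 0.11 (-0.13 to 0.34) with mean HD differences of -0.14 and -0.04, and Slc17a6 was the highest member. Without NT_p62KO replicate 3 and HD_p62WT replicate 2 the list had -0.02 (-0.14 to 0.10), and without the narrowest array of each group -0.02 (-0.16 to 0.12). Huntingtin, its partners and transcription cofactors, 26 measured, had 0.03 (-0.11 to 0.17).

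Activity-regulated immediate early genes, which neuronal firing induces, were lower in HD mice of both genotypes. The 28 measured genes had mean HD differences of -0.37 with p62 and -0.31 without, an interaction of 0.06 (-0.21 to 0.33). Npas4, a transcription factor induced by calcium entry, was highest. Its values were 7.71, 8.06 and 8.00 in NT_p62WT, 6.56, 7.05 and 6.90 in HD_p62WT, 7.15, 6.69 and 7.93 in NT_p62KO and 7.12, 6.51 and 7.15 in HD_p62KO mice. With p62 the groups did not overlap and without p62 they did, and the interaction was 0.76 (-0.06 to 1.58). Homer1, a scaffold of the postsynapse, fell by 0.68 with p62 and fell by 0.77 without, and its interaction was -0.09 (-0.32 to 0.15).

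Genes of cholesterol synthesis were also lower in HD. The 20 measured genes had mean HD differences of -0.28 and -0.21, an interaction of 0.06 (-0.14 to 0.27). Msmo1, a sterol oxidase, fell by 0.81 with p62 and fell by 0.76 without (interaction 0.05; -0.38 to 0.47). Nsdhl, a sterol dehydrogenase, was highest. Its values were 9.52, 9.49 and 9.48 in NT_p62WT, 9.26, 9.19 and 9.05 in HD_p62WT, 9.46, 9.49 and 9.43 in NT_p62KO and 9.45, 9.36 and 9.37 in HD_p62KO mice. It fell by 0.33 with p62, while the difference of -0.07 without p62 did not pass, and the interaction was 0.27 (0.06 to 0.47).

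Interferon-stimulated genes, which type I interferon switches on through the factor ISGF3, were higher in HD mice of both genotypes. The 25 measured genes had mean HD differences of 0.37 with p62 and 0.45 without. The interaction was 0.09 (-0.10 to 0.27), or 21.2% of the averaged difference (-24.2% to 66.7%). Of the 25 genes 11 rose with p62 and 12 without (backgrounds of rising genes 3.85% and 13.3%), and 0 fell in either. Per mouse the list mean was -0.27, -0.22 and -0.18 in NT_p62WT, 0.15, 0.12 and 0.16 in HD_p62WT, -0.21, -0.21 and -0.14 in NT_p62KO and 0.18, 0.41 and 0.21 in HD_p62KO mice. Each HD_p62KO mouse lay above each HD_p62WT mouse, with HD_p62KO replicate 2 highest, and without that mouse the interaction was 0.02.

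The response element of these genes is shown because the list mean was higher in each HD mouse than in any NT mouse. Promoters were RefSeq sequences of build GRCm38.p6 from 250 bases before to 50 after a start of the gene, and 16 of the 25 genes matched. A gene may have more than 1 such start. The Ifit3 windows below lie inside the annotated span of the gene, which begins at chr19:34583119. The start used for Ifit3 was thus not the first base of that span. The motif searched was GAAA, 2 bases of any kind (NN) and GAAA, on both strands, and overlapping matches count. It was found in 9 of the 16 genes (56.2%) and in 3.99% of all 27025 genes with a promoter entry, or 3.44% of 32851 promoters. A match is a description of the letters only. The windows of Ifit3, the member with the highest interaction, and of Ifit1 and Gbp3, chosen after their values were seen, are given 5′ to 3′ on the gene's strand, here the plus strand, with 1 match, the reverse complement of the motif, in capitals. The Gbp3 window holds another match that overlaps the one shown and is in lower case.
Ifit3, chr19:34583358-34583397: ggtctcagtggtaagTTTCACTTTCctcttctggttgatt
Ifit3, chr19:34583392-34583431: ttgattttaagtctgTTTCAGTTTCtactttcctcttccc
Ifit1, chr19:34640789-34640828: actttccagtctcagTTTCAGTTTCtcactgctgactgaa
Gbp3, chr3:142559984-142560023: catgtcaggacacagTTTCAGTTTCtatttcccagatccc

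Ifit3, which binds viral RNA together with other Ifit proteins, had both the highest interaction and the largest averaged HD difference of the list. Its values were 7.43, 7.79 and 7.50 in NT_p62WT, 8.48, 8.22 and 8.27 in HD_p62WT, 7.74, 7.31 and 7.39 in NT_p62KO and 8.37, 9.06 and 8.72 in HD_p62KO mice. Each HD mouse lay above each NT mouse, and the p62 genotypes overlapped. Ifit3 rose by 0.75 with p62 and by 1.24 without, an interaction of 0.49 (-0.03 to 1.00).

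Ifit1 and Gbp3, with the same element, had interactions of 0.34 (-0.15 to 0.82) and 0.09 (-0.31 to 0.49). Of the other genes with a match, Ddx58 had 0.28, Rsad2 0.24, Stat2 0.11, Oas1a 0.09, and Bst2 and Ifih1 -0.17 each. Of genes whose promoter windows held no match, Irf9 had 0.28, Oasl2 0.15, Ifit2 0.08, Xaf1 0.05, Ifi35 -0.02 and Irf7 -0.08. Whether the interaction goes with the element was not tested. Trim25, a ubiquitin ligase of the RIG-I pathway whose promoter window held no match, was lowest with -0.35 (-0.64 to -0.06). Its values were 5.39, 5.43 and 5.59 in NT_p62WT, 6.52, 6.38 and 6.24 in HD_p62WT, 5.76, 5.70 and 5.90 in NT_p62KO and 6.46, 6.22 and 6.38 in HD_p62KO mice. The NT_p62KO mice lay above the NT_p62WT mice, and the HD genotypes overlapped. MHC class I presentation genes, 13 measured, had 0.01 (-0.13 to 0.14), and B2m, the class I light chain, rose by 0.60 with p62 and by 0.77 without.

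Glial groups were all bounded within 0.5. The interaction was 0.07 for microglia and complement genes (-0.12 to 0.26; 19 measured), 0.07 for astrocyte markers and reactive genes (-0.06 to 0.20; 19 measured), -0.02 for mature oligodendrocyte and myelin genes (-0.30 to 0.26; 17 measured) and -0.03 for oligodendrocyte precursor markers (-0.19 to 0.13; 14 measured). Among microglial genes Fcrls was highest (0.46; -0.47 to 1.38) and Trem2, a lipid receptor, lowest (-0.17; -0.47 to 0.13). Vim, an intermediate filament of reactive astrocytes, had the largest averaged HD difference of its list. Its values were 8.71, 9.01 and 8.67 in NT_p62WT, 9.40, 9.30 and 9.40 in HD_p62WT, 9.01, 8.63 and 8.60 in NT_p62KO and 9.23, 9.52 and 9.64 in HD_p62KO mice. Each HD mouse lay above each NT mouse in both genotypes.

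Endothelial and mural cell markers, 17 measured, had an interaction of -0.10 (-0.24 to 0.04). Without HD_p62KO replicate 2 the interaction of the list was -0.14, and its interval left out 0. Kdr, a VEGF receptor, was lowest in this list. Its values were 7.63, 7.71 and 7.71 in NT_p62WT, 7.73, 7.77 and 7.89 in HD_p62WT, 7.99, 8.00 and 8.13 in NT_p62KO and 7.64, 7.92 and 7.71 in HD_p62KO mice. The NT_p62KO mice were the highest of all 12, and the interaction was -0.40 (-0.66 to -0.15). Ependymal markers, 12 measured, had -0.13 (-0.37 to 0.10).

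The choroid plexus and cortex lists were bounded least closely. Choroid plexus markers, 13 measured, had an interaction of -0.64 (-2.22 to 0.94), and the list mean ran from -0.78 in HD_p62KO replicate 1 to 1.18 in HD_p62KO replicate 2, both in the same group. Ttr ran from 8.36 to 12.21 in these same mice. Excitatory neurons of the neighbouring cortex, 17 measured, had 0.07 (-0.46 to 0.60). With the choroid plexus list mean added as a covariate, the HD response had an interaction of 0.18 (-0.10 to 0.47). Of the 30 other lists fitted with this covariate, 24 had a positive interaction. The interval left out 0 only for interneuron markers, 0.30 (0.07 to 0.53). The share of these tissues in the other values was not tested further.

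Groups with broad expression had small positive means. Respiratory chain and ATP synthase subunits, 48 measured, had 0.06 (-0.13 to 0.25), and ribosomal proteins, 35 measured, had 0.08 (-0.08 to 0.25). Without NT_p62KO replicate 3 and HD_p62WT replicate 2 these were -0.03 (-0.18 to 0.11) and 0.01 (-0.15 to 0.18), and without the narrowest array of each group 0.01 (-0.10 to 0.12) and 0.07 (-0.11 to 0.24). Developmental Hox, Pax, Tbx and Gata factors, 49 measured and mostly dim, had -0.07 (-0.29 to 0.15), with Hoxc9 lowest (-0.42; -0.95 to 0.10).

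The genes with the smallest unadjusted p are described without support from the adjusted test (limma, adjusted p at least 0.991). The smallest, 0.000171, was that of Glb1l3, a relative of beta-galactosidase. Its values were 6.03, 5.68 and 5.74 in NT_p62WT, 6.18, 5.97 and 6.15 in HD_p62WT, 5.77, 5.87 and 5.86 in NT_p62KO and 5.37, 5.48 and 5.23 in HD_p62KO mice. The HD_p62KO mice lay below all others, and the interaction was -0.76 (-1.07 to -0.45). Akna, a DNA-binding centrosomal protein, had -0.63 (-0.91 to -0.35), and Snord53, a small nucleolar RNA, had the most negative value of these genes, -1.82 (-2.82 to -0.82).

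In the positive direction Slf1, which localizes the SMC5/6 complex to damaged DNA, had the largest interaction, 1.19 (0.56 to 1.83). Its values were 7.42, 6.39 and 7.21 in NT_p62WT, 6.77, 6.46 and 6.66 in HD_p62WT, 6.53, 6.67 and 6.34 in NT_p62KO and 7.24, 7.45 and 7.30 in HD_p62KO mice. NT_p62WT replicate 2 stood apart from its group, and without it the interaction was 1.501 (limma, adjusted p = 0.0354), the only gene called in any alternative. The splicing-related cyclophilins Cwc27 and Ppil4 had 0.70 (0.35 to 1.06) and 0.41 (0.18 to 0.64), and rose without p62 by 0.88 and 0.41, while their HD differences with p62, 0.18 and 0.00, did not pass the test. The other genes of the positive direction (Mok, Lrrc18, Cecr2, Fam169b, Sergef, Dnaic1 and Gask1a) had interactions of 0.38 to 0.67. The other genes of the negative direction (Tulp2, Mup5, Olfr1353, Clec9a, Zfp459, C1qtnf3 and Olfr895) had -0.98 to -0.41.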

How the data were processed

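From 100 ng of striatal RNA of each mouse, whole-transcript targets were made for Affymetrix arrays (per the labels' protocols). The deposited tables hold the authors' log2 expression of each probe set, and the submitters' processing notes name RMA, without a version or settings. RMA equalizes the arrays, which hides a change common to most genes, and no detection calls were used. Of 24055 probe sets 19942 had 1 symbol in the platform annotation, 1225 several and 2888 none.

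limma 3.58.1 in R 4.3.3 fitted 1 mean per group to 12 arrays (8 residual and 4.14 prior degrees of freedom), with p-values adjusted over all genes and a threshold of 0.05. List means and the HD response were fitted per mouse by a linear model. P-values and intervals measure the spread between these samples.

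Genes were named by rule: Sqstm1, the 10 smallest interaction p in each direction, genes with at least a 2-fold averaged HD difference, and per list the members with the highest and lowest interaction and the largest averaged HD difference. Symbols of predicted genes were counted and not named. Members and lists were chosen with earlier results of these data known. Red blood cell genes, 2 measured, were not bounded. The fits were tested on simulated data. There each gene varied independently between mice, so variation that the genes of an array share was not covered. Alternatives were leaving out each mouse, the replicate number as a block, other normalization, filters, probe set and variance choices, array weights, and a covariate for array spread or choroid plexus genes. Leaving out 2 arrays of small spread, or the narrowest array of each group, and leaving Calb2 out of its list were chosen after seeing the data.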

Additional observations from a re-analysis of the deposited data

Results flagged for a closer look

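The interaction of interneuron markers stood out because the HD difference differed between the p62 genotypes by the interval of the difference itself: 0.26 on the log2 scale (95% interval 0.05 to 0.48), with mean HD differences of -0.48 with p62 and -0.22 without. It was 1 of 31 groups, and the interval widened for 31 groups was -0.17 to 0.70. The estimate was positive for 12 of the 14 markers measured. For comparison, it was positive in 51.3% of all genes, 66.1% of bright genes and 33.3% of genes called lower in HD. The interval included 0 in 5 of 25 alternatives.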

How the results depend on the processing

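The interaction was called for 0 genes in 26 of 27 settings and for 1 gene in the other. Of 742 values of groups under alternatives 705 moved by less than the spread between mice and 37 moved by more. A reversed sign was counted only for interneuron markers, the 1 group whose interval left out 0, and 0 were found. Other groups did change sign. Positive groups went from 23 to 12 without NT_p62KO replicate 3 and HD_p62WT replicate 2. Of 1174 values of named genes 32 moved by more than the spread between mice. The widest interval over the alternatives stayed within 0.5 for 27 of 31 groups, the exceptions being choroid plexus, cortex, interneuron and projection neuron lists. The cause of the changes given here was not tested.

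HD counts with p62 were 2799 at an adjusted p below 0.1, 4625 with array weights, 672 with a choroid plexus covariate, 709 with the replicate block and 2619 without 2 arrays of small spread (NT_p62KO replicate 3 and HD_p62WT replicate 2). Counts without p62 were 6465 at 0.1, 779 with array spread as a covariate, 6663 with weights and 2226 without the 2 arrays. Genes at an unadjusted interaction p below 0.05 numbered 1507 with weights, 1010 with the choroid covariate, 290 above the 50th percentile of mean value and 1307 without the narrowest array of each group. Leaving out single mice gave 398 to 2040 genes with p62, 1273 to 5128 without, 463 to 1370 at the unadjusted p (1370 without HD_p62KO replicate 1) and 0 to 1 called. The same omissions gave 0.056 to 0.243 for the HD response, 0.016 to 0.128 for interferon-stimulated genes, -0.042 to 0.039 for channels and 0.197 to 0.316 for interneuron markers.

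Without the 2 arrays the interaction was -0.012 for the HD response, 0.033 for ATF4 targets, -0.035 for core autophagy, -0.013 for autophagy receptors, -0.023 for cholesterol synthesis, 0.012 for developmental factors, -0.056 for the unfolded protein response, 0.018 for heat shock proteins, -0.034 for huntingtin partners, 0.172 for immediate early genes, -0.053 for channels, -0.0077 for the lysosome, 0.020 for NRF2, -0.013 for the proteasome, 0.040 for receptor subunits, -0.032 for the respiratory chain, 0.014 for ribosomal proteins, -0.019 for synaptic vesicles and -0.021 for ubiquitin genes. Without the narrowest array of each group it was -0.033 for core autophagy, 0.010 for autophagy receptors, -0.044 for choroid plexus, -0.285 for cortex, 0.0085 for ependymal markers, -0.042 for channels, 0.080 for MHC class I, -0.077 for NF-kappaB and -0.018 for synaptic vesicles. With genes above the 50th percentile it was 0.171 for interferon-stimulated genes, 0.134 for interneuron markers, 0.106 for MHC class I and 0.080 for NF-kappaB, and above the 25th 0.063 for MHC class I and 0.0044 for NF-kappaB. Array weights gave 0.025 for ATF4 targets. Leaving Calb2 out gave 0.152 for interneuron markers, and the list median 0.079 for interneuron markers.

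Replicate numbers did not pair the mice: 4 of 18 same-number pairs correlated over 0.1 (-0.34 to 0.21), against 10 of 36 pairs of unlike number. With the replicate block 0 genes were called, and the HD response had an interaction of 0.13 (-0.18 to 0.44). Depth does not apply to arrays; dim genes were bounded least.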
